A study of Rattus norvegicus with 18 samples.

Results

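The genes described here encode receptors for acetylcholine and the enzymes that make and break down this transmitter. They were taken by name, as all probes annotated to 10 genes, with earlier results of these data known. The nicotinic subunits were Chrna3, Chrna4, Chrna7 and Chrnb2, and the muscarinic receptors were Chrm1, Chrm2, Chrm3 and Chrm4. The enzymes were acetylcholinesterase (Ache) and choline acetyltransferase (Chat). The array table held 1 probe each for 8 of these 10 genes, among 22523 probes and 13337 gene symbols in all. No probe was annotated to Ache or Chat, and the levels of those 2 genes were not analysed here. Statements below on the levels of the named genes therefore concern receptors and rest on 1 probe per gene.

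The 18 Illumina arrays measured total RNA from single female Wistar rat pups, in 6 groups of 3 pups, with 1 pup taken per litter. The dams had been injected in the tail at 0.3 ml/kg with vehicle (ethanol, Cremophor EL and water) or with BDE-47 (a flame retardant of the polybrominated diphenyl ethers) at 0.002 or 0.2 mg/kg per injection. Frontal lobe came from pups at postnatal day 41 whose dams had received 6 injections between gestational day 15 and postnatal day 20, according to that tissue's own protocol, although the series' design text names day 10 for both tissues. Total brain came from pups at postnatal day 10 whose dams had received 3 injections, on gestational day 15 and postnatal days 1 and 5. Pups were exposed only through their dams, vehicle pups shared the injection schedule and the solvent of their tissue, and tissue, age and schedule differed together.

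Acetylcholine acts on 2 unrelated receptor families. Nicotinic receptors are ion channels built from several subunits: Chrna4 with Chrnb2 forms the main high-affinity nicotine receptor of the brain, Chrna7 forms a channel of its own that passes calcium and desensitizes fast, and Chrna3 is known from autonomic ganglia and the medial habenula. Muscarinic receptors are coupled to G proteins: Chrm1 and Chrm3 act through Gq and phospholipase C, whereas Chrm2 and Chrm4 act through Gi/o and lower cyclic AMP. In cortex, acetylcholine arrives largely from basal forebrain neurons, and Chrm4 is abundant in striatum and cortex.

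The promoters of the genes that the results turn on are shown first, because these were the members with the widest differences between dose groups (Chrm4 and Chrm3) or the largest SD within dose groups (Chrna4). Each line gives the 250 bases before the RefSeq start site in the rat build GRCr8, along the gene's own strand. Capitals mark matches on either strand to the GC box GGGCGG bound by Sp1 family factors, to GCGTG (the core letters of the element bound by the aryl hydrocarbon receptor), to CCAAT and to the cyclic AMP response element TGACGTCA. The regions are chr3:98348830-98349079 (plus strand) for Chrm4, chr17:64696677-64696926 (plus strand) for Chrm3 and chr3:188534527-188534776 (minus strand) for Chrna4.
Chrm4: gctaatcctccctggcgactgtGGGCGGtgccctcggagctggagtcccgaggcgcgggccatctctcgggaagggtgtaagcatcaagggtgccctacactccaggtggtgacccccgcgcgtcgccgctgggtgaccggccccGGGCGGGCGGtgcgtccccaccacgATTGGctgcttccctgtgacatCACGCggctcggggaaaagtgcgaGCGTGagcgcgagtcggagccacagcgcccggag
Chrm3: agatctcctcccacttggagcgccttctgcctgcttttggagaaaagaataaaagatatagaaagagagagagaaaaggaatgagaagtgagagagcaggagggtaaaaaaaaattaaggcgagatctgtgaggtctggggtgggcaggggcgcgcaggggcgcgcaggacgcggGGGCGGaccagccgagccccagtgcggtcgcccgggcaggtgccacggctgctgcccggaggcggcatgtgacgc
Chrna4: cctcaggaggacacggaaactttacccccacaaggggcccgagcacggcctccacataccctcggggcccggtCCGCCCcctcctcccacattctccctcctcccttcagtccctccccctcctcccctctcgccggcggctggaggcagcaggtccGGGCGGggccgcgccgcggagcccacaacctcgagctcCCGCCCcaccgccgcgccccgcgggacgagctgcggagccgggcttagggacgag
Chrm4 held 3 GC boxes, of which 2 overlap in the run between bases -105 and -96, 2 GCGTG cores and 1 CCAAT match. Chrm3 held 1 GC box and Chrna4 held 3. All 10 genes had a promoter in the table, and 8 of them held a GC box, against 30.5% of all 33469 promoters of this length. The GCGTG core was found in 3 of the 10 (Chrm4, Chrm1 and Chrnb2) against 25.9% of all promoters, CCAAT in 2 of the 10 (Chrm4 and Chat) against 34%, and TGACGTCA in 0 of the 10 against 1.59%. The GC content of the members' promoters was 57.2% to 75.6%, against a median of 51.2% over all promoters, and a motif match is a description of letters, not of binding.

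Values are on the log2-like scale of the deposited table, which ran from 7.45 to 15.75. A mean under 8 is called near the floor of that scale here, and 57.1% of probes lay there. Arrays of 1 tissue correlated at r of 0.981 to 0.998 across probes. Marker genes were read beside the tissue labels, although age differed together with tissue. All 8 measured genes of the cerebellum and hindbrain list were under 8 in every frontal lobe group, whereas 4 or 5 of the 8 reached 8 in the total brain groups. The cortical marker Slc17a7, the vesicular glutamate transporter of cortical projection neurons, averaged 10.47 in the frontal lobe vehicle group and 9.31 in the total brain vehicle group. Of the 3 measured cortical markers, limma called Slc17a7 and Neurod6 higher in the frontal lobe vehicle group at an adjusted p under 0.05. After median centring or quantile normalization only Slc17a7 was called.

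The receptors fell into probes with signal clearly over the floor and probes near it. Chrna7, Chrnb2 and Chrm2 averaged under 8 in both tissues, so that a change in these genes could have gone undetected. Chrm1 averaged 8.07 in frontal lobe and 7.87 in total brain, and Chrna3 averaged 8.01 in frontal lobe and 8.56 in total brain. Chrna4, Chrm4 and Chrm3 exceeded 8 on every array of both tissues. A level on 1 probe is not set against the level on another here, because probes differ in their response.

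**Figure D1:**
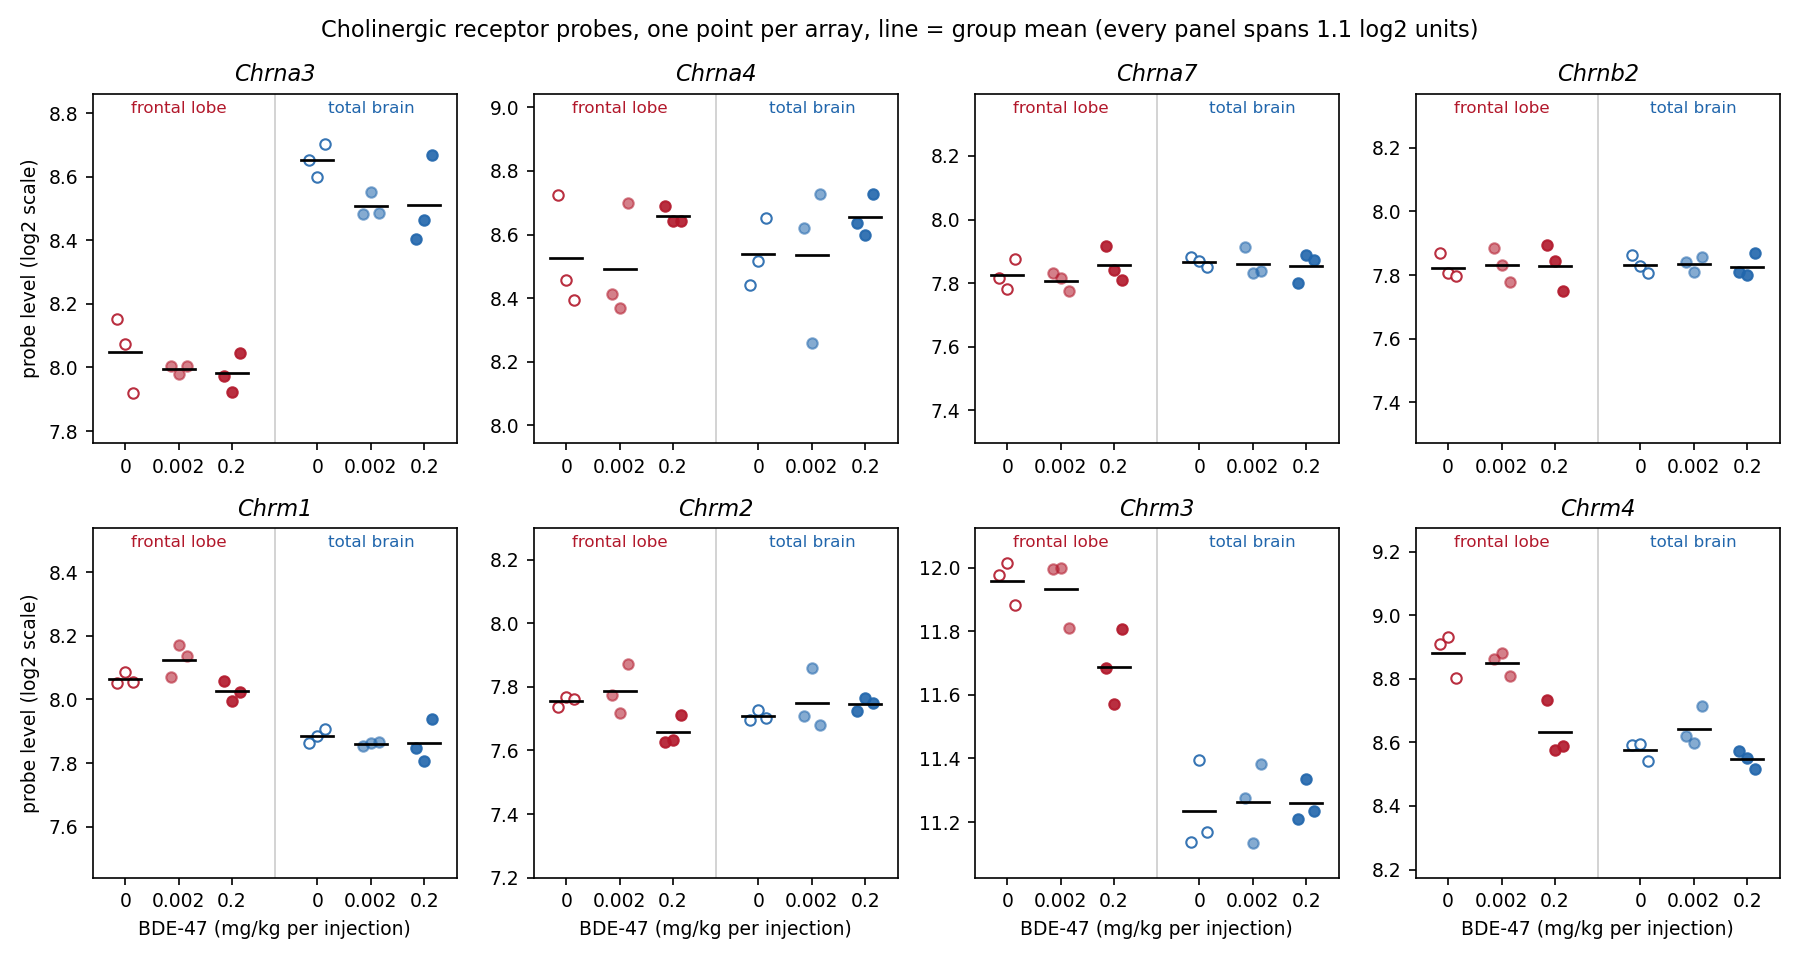
Level of the 8 receptor probes (log2 scale, vertical axis) on each array against the dose per injection (mg/kg, horizontal axis; 0 is vehicle), with frontal lobe in red on the left and total brain in blue on the right of each panel, 3 arrays per group and a line at the group mean. In frontal lobe the 3 arrays at 0.2 mg/kg lay under all 6 other arrays for Chrm2, Chrm3 and Chrm4. Chrna4 varied more within the frontal lobe vehicle and 0.002 mg/kg groups than at 0.2 mg/kg.

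Chrm4 was the receptor whose frontal lobe level at 0.2 mg/kg stood furthest from vehicle by its p-value. Its frontal lobe levels were 8.91, 8.93 and 8.80 with vehicle, 8.86, 8.88 and 8.81 at 0.002 mg/kg and 8.73, 8.58 and 8.59 at 0.2 mg/kg. Every array at 0.2 mg/kg was lower than every array of the other groups of that tissue, and the vehicle and 0.002 mg/kg arrays overlapped. The group means were 8.63 ± 0.087 at 0.2 mg/kg and 8.88 ± 0.069 with vehicle (SD, n = 3 each). The log2 difference was -0.25 (95% interval -0.369 to -0.13), with an adjusted p = 0.0678 in limma over all 22523 probes (unadjusted p = 0.00141). Chrm4 was thus not called at the 0.05 threshold. Against 0.002 mg/kg the difference was -0.22 (adjusted p = 0.0684 in limma), also not called. Without the third vehicle array, whose level was the lowest of that group, the difference from vehicle was -0.29 and passed (adjusted p = 0.0318 in limma). Without the first array at 0.2 mg/kg, the difference from 0.002 mg/kg was -0.27 and passed (adjusted p = 0.0427 in limma), whereas the fits without each of the other arrays did not (up to 0.201). Over all 14 alternatives, the adjusted p ran from 0.0132 to 0.203 against vehicle and from 0.0167 to 0.201 against 0.002 mg/kg, in both cases lowest with all 18 arrays in the fit.

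Chrm3, the Gq-coupled receptor, had frontal lobe levels of 11.98, 12.02 and 11.88 with vehicle, 12.00, 12.00 and 11.81 at 0.002 mg/kg and 11.68, 11.57 and 11.81 at 0.2 mg/kg. All 3 arrays at 0.2 mg/kg were under all 6 others, although the third of them equalled the lowest array at 0.002 mg/kg at 2 decimals. The means were 11.69 ± 0.12 at 0.2 mg/kg and 11.96 ± 0.068 with vehicle (SD, n = 3 each). The log2 difference of -0.27 (95% interval -0.442 to -0.1) was not called, with an adjusted p = 0.132 in limma. Against 0.002 mg/kg it was -0.25, with an adjusted p = 0.12 in limma, and again was not called.

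Chrm2, the Gi-coupled receptor also known as the presynaptic autoreceptor, lay near the floor, at 7.66 ± 0.048 at 0.2 mg/kg and 7.76 ± 0.015 with vehicle in frontal lobe (SD, n = 3 each). Its arrays read 7.74, 7.77 and 7.76 with vehicle, 7.78, 7.72 and 7.87 at 0.002 mg/kg and 7.63, 7.63 and 7.71 at 0.2 mg/kg. The highest array at 0.2 mg/kg was just under the lowest of the others. The difference of -0.097 was not called (adjusted p = 0.334 in limma). Against 0.002 mg/kg the difference was -0.13 (adjusted p = 0.143 in limma). Chrm1, the main Gq-coupled receptor of forebrain neurons, had 8.03 ± 0.032 at 0.2 mg/kg and 8.06 ± 0.018 with vehicle (SD, n = 3 each), with overlapping arrays. Its arrays at 0.002 mg/kg, at 8.07, 8.17 and 8.14, were all higher than those at 0.2 mg/kg, at 8.06, 8.00 and 8.03. That difference of -0.099 was not called (adjusted p = 0.143 in limma).

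Counted together, 0 of the 8 receptors were called for 0.2 mg/kg against vehicle in frontal lobe, where 1.14% of all probes (257) were called. At an unadjusted p under 0.05 there were 2 of 8 (Chrm4 and Chrm3), against 15% of all probes. The arrays of both groups did not overlap for 3 of 8 (Chrm2, Chrm3 and Chrm4), against 17.6% of all probes, and all 3 were lower, as were 8.76% of all probes. For 0.2 against 0.002 mg/kg, 0 of 8 were called, against 2.87% of all probes. In that comparison all 4 muscarinic receptors among the 8 and no nicotinic subunit were without overlap. All 4 were lower, against 26.2% of all probes without overlap and 12.9% lower. The same 4 were the receptors with an unadjusted p under 0.05, against 18.7%. Chrm5, the muscarinic receptor outside the 8, averaged under 8 over all 18 arrays and differed by 0.026 there. For Chrm3 the highest array at 0.2 mg/kg was 11.806 and the lowest at 0.002 mg/kg 11.810. For Chrm2 these were 7.713 and 7.719, and for Chrm1 8.059 and 8.070. The median log2 difference of the 8 receptors was -0.052 against vehicle and -0.056 against 0.002 mg/kg, beside 0.002 and 0 over all probes. Both comparisons use the same 3 arrays at 0.2 mg/kg, so that they are not independent of each other.

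**Figure D2:**
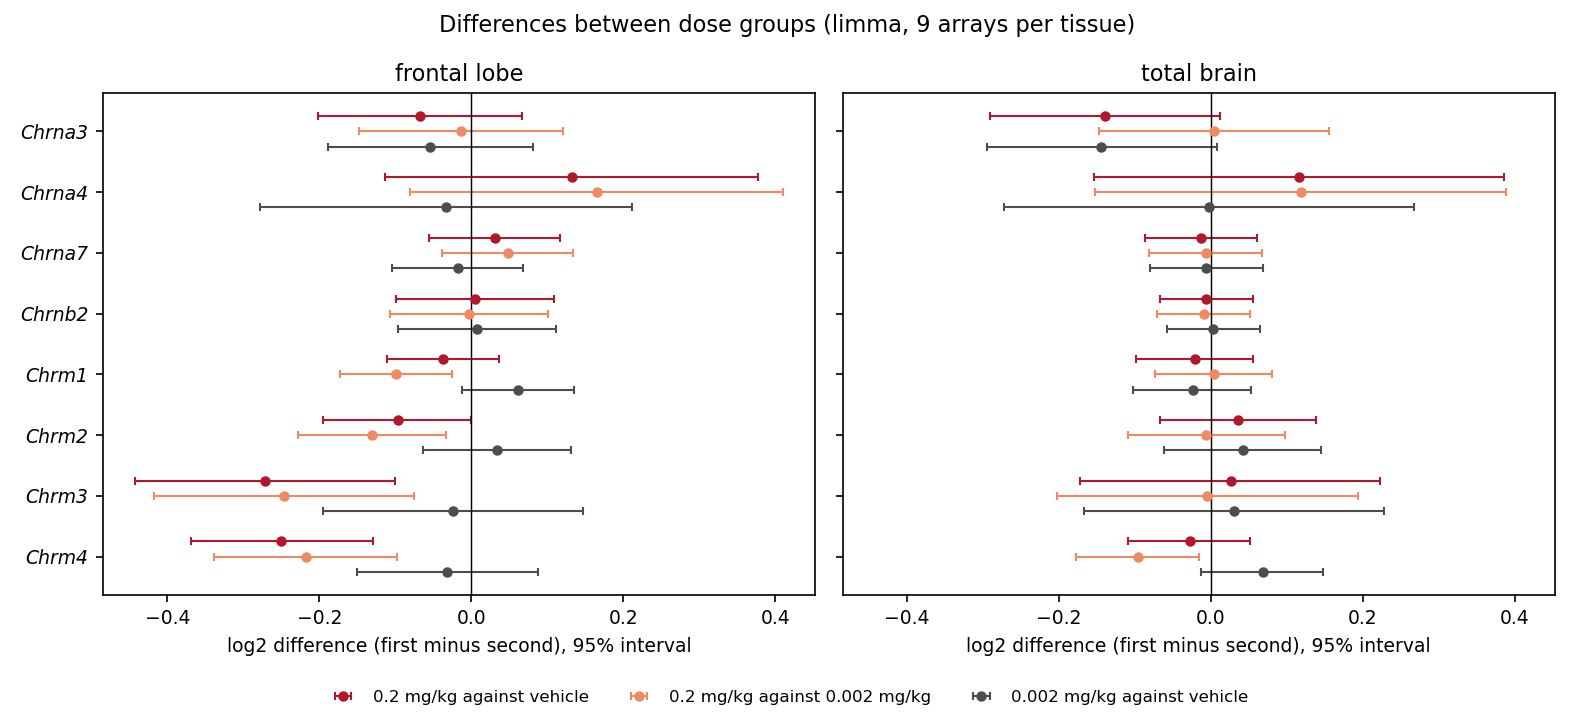
Log2 difference between dose groups for each receptor probe with its 95% interval from limma, in frontal lobe on the left and total brain on the right; a value under 0 means lower in the group named first. In frontal lobe the intervals of Chrm3 and Chrm4 for 0.2 mg/kg lie under 0 against both vehicle and 0.002 mg/kg, and the Chrna4 intervals are the widest.

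Marker genes of cell types were read beside these frontal lobe values, and some of them differed between dose groups as well. The summed level of the frontal cortex markers, 3 of 6 measured (Emx1, Slc17a7 and Neurod6), was 28.52 to 29.56 on the arrays at 0.2 mg/kg, 30.26 to 30.53 at 0.002 mg/kg and 30.07 to 30.54 on the vehicle arrays. All 3 means were lower at 0.2 mg/kg than with vehicle, with a median log2 difference of -0.58. Of the 3, 2 had an unadjusted p under 0.05 in limma, so that the sum does not stand for each gene alike. The sum of the 5 neuron markers was 61.11 to 62.39 at 0.2 mg/kg, 63.43 to 63.81 at 0.002 mg/kg and 62.95 to 63.28 with vehicle. The neuron genes did not move as one: Snap25, Syt1 and Nefl were lower on all arrays at 0.2 mg/kg than with vehicle (-0.66, -0.43 and -0.37), whereas Rbfox3 was higher on all of them (0.12, unadjusted p = 0.00566) and Stmn2 differed by 0.19 with overlap, and none of the 5 was called in limma. The 6 markers of meninges and fibroblasts summed to 64.93 to 67.23 at 0.2 mg/kg, 62.20 to 62.86 at 0.002 mg/kg and 61.98 to 65.11 with vehicle. For the striatum 7 of 8 markers were measured, with sums of 66.72 to 67.46 at 0.2 mg/kg, 66.16 to 66.72 at 0.002 mg/kg and 65.47 to 67.31 with vehicle. The 2 measured red blood cell markers of 3, Hbb and Alas2, summed to 23.63 to 23.83 at 0.2 mg/kg, above all other arrays, against 22.39 to 23.03 at 0.002 mg/kg and 22.61 to 23.59 with vehicle, with neither gene called. The 4 measured oligodendrocyte markers of 5 summed to 41.68 to 42.20 at 0.2 mg/kg, 40.64 to 42.71 at 0.002 mg/kg and 40.02 to 41.18 with vehicle, and the sums for astrocytes, microglia, and thalamus and habenula overlapped between 0.2 mg/kg and vehicle. Slc17a7 was called lower (-0.78, adjusted p = 0.0179 in limma), and Igfbp2, a secreted protein that binds insulin-like growth factors, was called higher (0.88, adjusted p = 0.0308 in limma). Both calls were lost without the first or second vehicle array or the first array at 0.2 mg/kg (adjusted p of 0.0609, 0.0696 and 0.0616 for Slc17a7 and 0.0766, 0.116 and 0.0847 for Igfbp2 in limma). Against 0.002 mg/kg both genes were called as well, Slc17a7 at -0.91 (adjusted p = 0.011 in limma) and Igfbp2 at 1.31 (adjusted p = 0.0106 in limma). Each stayed called in 5 of 6 fits without single arrays. Igf2 was also called higher there (0.94, adjusted p = 0.0381 in limma) and stayed called in 1 of 6 such fits. Of the 3 arrays at 0.2 mg/kg, the third had the highest cortical sum and the highest Chrm3, but the first had the highest Chrm4. Of the 6 lists with sums given, the measured genes that averaged under 8 in a frontal lobe group were Rbfox3 and Alas2, both in the vehicle and 0.002 mg/kg groups. The part of these markers in the muscarinic values was not tested, and in a piece of tissue, fewer cells of a type cannot be told apart from less RNA per cell.

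**Figure D3:**
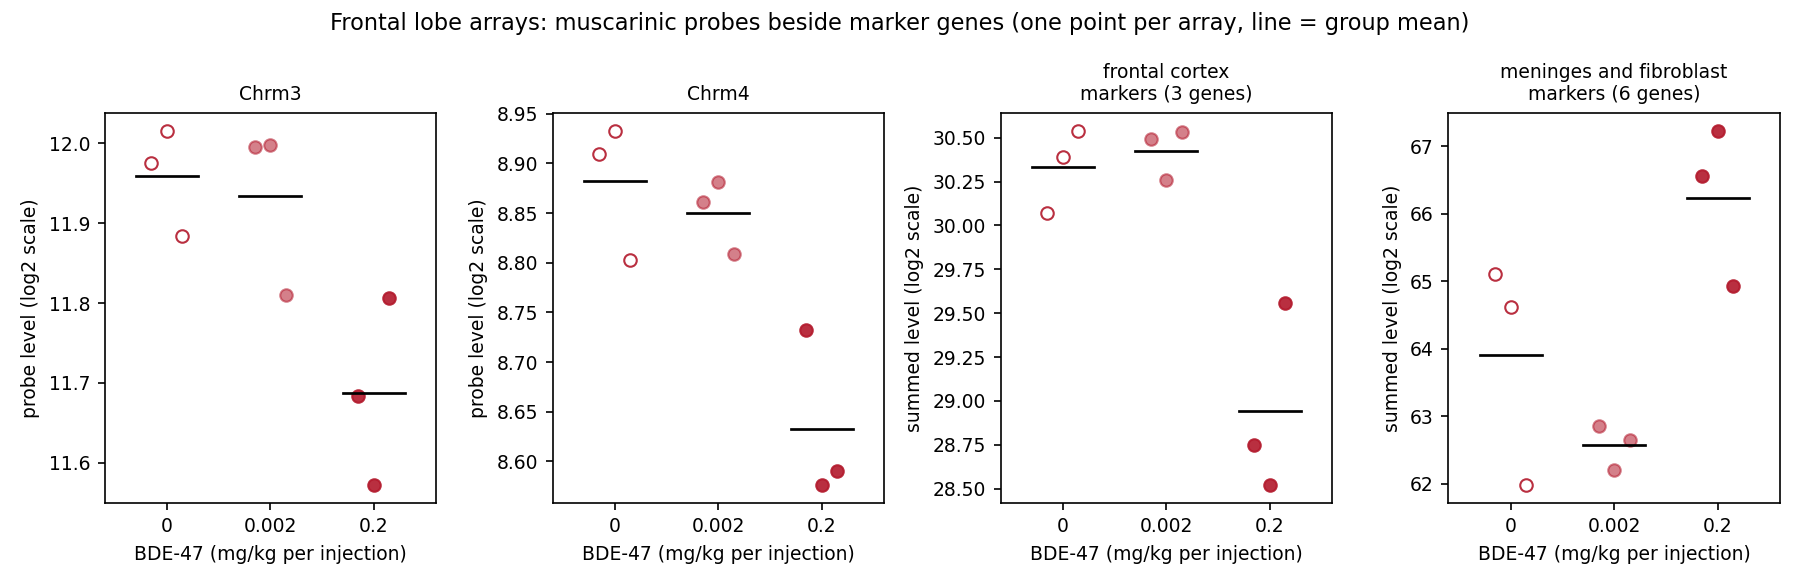
Frontal lobe arrays by dose (mg/kg per injection; 0 is vehicle): level of Chrm3 and Chrm4 (log2 scale) and summed level of the frontal cortex markers and of the meninges and fibroblast markers, 1 point per array and a line at the mean of 3. The arrays at 0.2 mg/kg are the lowest 3 for Chrm3, Chrm4 and the cortical sum, and their meningeal sums run from 64.93 to 67.23.

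At 0.002 mg/kg the frontal lobe receptors stayed close to vehicle. None of the 8 was called (0% of all probes called; 1151 of them, 5.11%, had an unadjusted p under 0.05 in limma and no receptor did), and 0 of the 8 were without overlap, against 12.8% of all probes. The differences ran from -0.054 for Chrna3 to 0.062 for Chrm1. For Chrm4 it was -0.032 (95% interval -0.151 to 0.088) and for Chrm3 -0.024 (95% interval -0.195 to 0.147).

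Among the nicotinic subunits, Chrna4 had the largest SD within dose groups. Its frontal lobe levels were 8.73, 8.46 and 8.40 with vehicle, 8.41, 8.37 and 8.70 at 0.002 mg/kg and 8.69, 8.64 and 8.64 at 0.2 mg/kg. The arrays at 0.2 mg/kg lay close together, and 1 array in each of the other groups was higher than all of them. The means were 8.66 ± 0.028 at 0.2 mg/kg and 8.53 ± 0.17 with vehicle (SD, n = 3 each). The difference of 0.13 (95% interval -0.113 to 0.377) was not called (adjusted p = 0.638 in limma).

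In total brain, Chrna4 had 8.44, 8.52 and 8.65 with vehicle, 8.62, 8.26 and 8.73 at 0.002 mg/kg and 8.64, 8.60 and 8.73 at 0.2 mg/kg. The second array at 0.002 mg/kg was the lowest of all 18, and the 3 groups overlapped. The means were 8.65 ± 0.067 at 0.2 mg/kg and 8.54 ± 0.11 with vehicle (SD, n = 3 each), a difference of 0.12 with an adjusted p = 1 in limma (95% interval -0.154 to 0.386). Ordered by mean, both 0.2 mg/kg groups came first among the 6 groups and the frontal lobe 0.002 mg/kg group came last at 8.49 ± 0.18, but each group overlapped the next. The within-group SD of Chrna4 was 0.146 in frontal lobe and 0.159 in total brain, against medians of 0.118 and 0.105 over probes with a mean of at least 8.

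Chrna3, the ganglionic and habenular subunit, had total brain levels of 8.65, 8.60 and 8.70 with vehicle, 8.48, 8.55 and 8.49 at 0.002 mg/kg and 8.40, 8.47 and 8.67 at 0.2 mg/kg. All 3 arrays at 0.002 mg/kg were lower than all vehicle arrays, whereas 1 array at 0.2 mg/kg reached the vehicle range. The differences from vehicle were -0.14 at 0.002 mg/kg (adjusted p = 0.733 in limma) and -0.14 at 0.2 mg/kg (adjusted p = 1 in limma), and neither was called. In frontal lobe the differences were -0.054 at 0.002 mg/kg and -0.067 at 0.2 mg/kg, with overlapping arrays.

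Chrna7 ran from 7.78 to 7.92 in frontal lobe and from 7.80 to 7.91 in total brain. Chrnb2, the usual partner of Chrna4, ran from 7.75 to 7.89 in frontal lobe and from 7.80 to 7.87 in total brain. No dose group of these 2 subunits was set apart from another, and their largest difference was 0.048, for Chrna7 at 0.2 against 0.002 mg/kg in frontal lobe.

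In total brain the muscarinic receptors differed by less than 0.1 between dose means. Chrm4 had 8.59, 8.60 and 8.54 with vehicle, 8.62, 8.60 and 8.71 at 0.002 mg/kg and 8.57, 8.55 and 8.52 at 0.2 mg/kg. The arrays at 0.002 mg/kg were all above vehicle, the lowest of them by a margin that vanishes at 2 decimals (mean difference 0.068, adjusted p = 0.736 in limma) and all above 0.2 mg/kg. The difference of 0.2 from 0.002 mg/kg was -0.096, with an unadjusted p = 0.0249 and an adjusted p = 0.78 in limma. Chrm3 had 11.14, 11.40 and 11.17 with vehicle, 11.28, 11.13 and 11.38 at 0.002 mg/kg and 11.21, 11.34 and 11.23 at 0.2 mg/kg, with full overlap. Its means were 11.23 ± 0.14 with vehicle, 11.26 ± 0.13 at 0.002 mg/kg and 11.26 ± 0.068 at 0.2 mg/kg (SD, n = 3 each). None of the 8 receptors was called in total brain for 0.2 mg/kg against vehicle, 0.002 mg/kg against vehicle or 0.2 against 0.002 mg/kg, where limma called 0% of all probes each time. At an unadjusted p under 0.05 there were 0, 0 and 1 receptors, against 4.32%, 6.52% and 5.87% of all probes. Receptors without overlap numbered 0, 2 and 1 of 8, against 10.1%, 13% and 10.9% of all probes.

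Whether the response to a dose differed between frontal lobe and total brain was tested as an interaction on all 18 arrays. For 0.2 mg/kg the term was -0.22 for Chrm4 (95% interval -0.358 to -0.084, adjusted p = 0.179 in limma) and -0.30 for Chrm3 (95% interval -0.55 to -0.043, adjusted p = 0.327 in limma), and 0 of 8 receptors were called, against 0.204% of all probes. These were also the 2 receptors with an unadjusted p under 0.05, against 12% of all probes. For Chrna4 it was 0.016 (95% interval -0.34 to 0.371). For 0.002 mg/kg 0 of 8 were called and limma called 0% of all probes (1108, or 4.92%, had an unadjusted p under 0.05, and no receptor did). A difference between the tissues in the dose response of these receptors was therefore not shown.

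The vehicle groups of frontal lobe (day 41) and total brain (day 10) differed in 4 of the 8 receptors. Tissue, age and injection schedule differed together in this comparison and cannot be told apart. Chrm3 averaged 11.96 ± 0.068 in frontal lobe and 11.23 ± 0.14 in total brain (SD, n = 3 each), a log2 difference of 0.73 (adjusted p = 1.52e-05 in limma). Chrm4 averaged 8.88 ± 0.069 in frontal lobe and 8.58 ± 0.031 in total brain (0.31, adjusted p = 0.000134 in limma). Chrm1 averaged 8.06 ± 0.018 in frontal lobe and 7.89 ± 0.021 in total brain (0.18, adjusted p = 0.000646 in limma). Chrna3 went the other way, with 8.05 ± 0.12 in frontal lobe and 8.65 ± 0.051 in total brain (-0.60, adjusted p = 7.69e-06 in limma).

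The calls of these 4 receptors held under every alternative run, leaving out single arrays included, and so did their signs. They compare with 52.7% of all probes called, 9.01% higher and 43.7% lower in frontal lobe, so that a count of 4 of 8 is near the share of the table. The arrays of the vehicle groups did not overlap for 5 of 8 receptors, against 61.6% of all probes. The median difference over all probes was -0.073, and the middle array median was 7.83 in frontal lobe and 7.89 in total brain. Of all calls 82.9% were lower in frontal lobe as deposited, 60.4% after median centring and 53% after quantile normalization. Chrm2, the fifth receptor without overlap, differed by 0.047 and was not called. Chrna4 differed by -0.011 (95% interval -0.263 to 0.24) as deposited and by 0.04 after median centring, so that its sign is not settled, and Chrna7 and Chrnb2 likewise had values under 0 as deposited and above 0 after either scaling.

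Over all doses, the 9 frontal lobe arrays of Chrm3 lay between 11.57 and 12.02 and the 9 total brain arrays between 11.13 and 11.40, without overlap. Chrm1 and Chrna3 also separated all arrays of the tissues, the first higher and the second lower in frontal lobe. For Chrm4 the tissues overlapped, since the frontal lobe mean at 0.2 mg/kg, 8.63, lay between the total brain means of 8.64 at 0.002 mg/kg and 8.58 with vehicle.

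**Figure D4:**
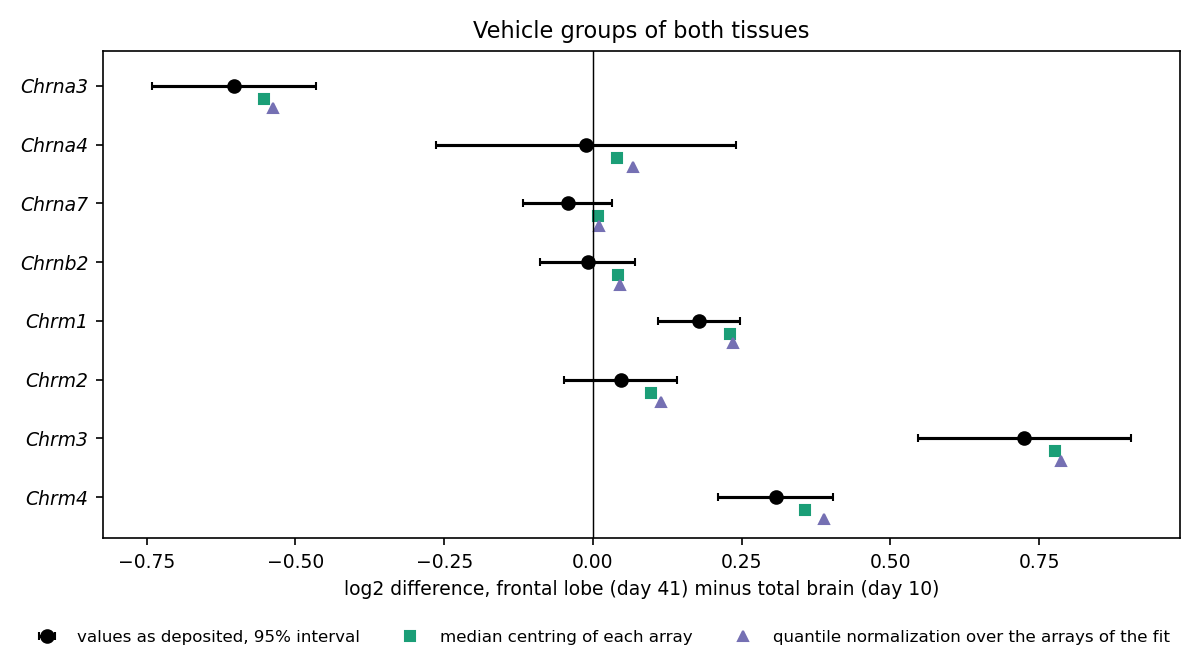
Log2 difference of the vehicle groups, frontal lobe (day 41) minus total brain (day 10), for each receptor probe: black points with 95% intervals are the deposited values, green squares follow median centring of each array and violet triangles quantile normalization. Chrm3, Chrm4 and Chrm1 lie above 0 and Chrna3 under 0 with every scaling, while the values of Chrna4, Chrna7 and Chrnb2 change sign with the scaling.

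Other genes of the cholinergic system were read from 6 lists of 57 genes, of which 45 had a probe. Averaged over all 18 arrays, 3 of 11 other nicotinic subunits reached 8, and Chrm5 did not. The same level was reached by 4 of 8 genes of acetylcholine and choline handling and 1 of 3 development genes. It was reached by 8 of 9 nicotinic chaperones and modulators and 11 of 13 muscarinic transduction genes. A change in the genes near the floor could have gone undetected. For 0.2 mg/kg against vehicle in frontal lobe 1 of the 45 was called, against 1.14% of all probes, and 13 of the 45 had an unadjusted p under 0.05, against 15%. Slc44a1, a choline transporter of the plasma membrane, averaged 8.26 ± 0.045 at 0.2 mg/kg and 7.90 ± 0.055 with vehicle (SD, n = 3 each; 0.36, adjusted p = 0.0144 in limma). Its vehicle mean was thus near the floor. The call was lost without the first or second vehicle array or the first array at 0.2 mg/kg, at adjusted p of 0.0557, 0.0628 and 0.056 in limma. In the same list Bche, butyrylcholinesterase, differed by -0.11 (adjusted p = 0.172 in limma). In the 13 measured genes of muscarinic transduction, the differences with the smallest p were -0.38 for the receptor kinase Grk2 (adjusted p = 0.0542 in limma) and -0.82 for Plcb1, a phospholipase driven by Gq (adjusted p = 0.0662 in limma), and 0 of 13 were called. In the 9 measured chaperones and modulators of nicotinic receptors they were -0.51 for Nsf, an ATPase of membrane fusion (adjusted p = 0.0514 in limma), and -0.45 for the 14-3-3 protein Ywhah (adjusted p = 0.0961 in limma). Of the 11 other nicotinic subunits 0 were called, with Chrnb1 at 0.13 (adjusted p = 0.166 in limma) and Chrna10 at 0.073 (adjusted p = 0.22 in limma). Chrm5, the remaining muscarinic receptor, differed by -0.023, and the 3 measured development genes included Nkx2-1 at -0.023 and Ngfr at 0.025, none of them called.

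For 0.2 against 0.002 mg/kg in frontal lobe 4 of the 45 were called, against 2.87% of all probes, and 12 of the 45 had an unadjusted p under 0.05, against 18.7%. Slc44a1 was higher (0.22, adjusted p = 0.0404 in limma). Nsf was lower, at 12.10 ± 0.14 against 12.89 ± 0.092 (SD, n = 3 each; -0.79, adjusted p = 0.0139 in limma), as were Plcb1 (-0.96, adjusted p = 0.0309 in limma) and Grk2 (-0.44, adjusted p = 0.026 in limma). When each of the 6 compared arrays was left out in turn, Nsf stayed called in 3 of 6 fits, being lost without any array at 0.002 mg/kg (adjusted p of 0.0533, 0.0613 and 0.0577 in limma). Slc44a1, Plcb1 and Grk2 stayed called in 1 of 6, the fit without the third array at 0.2 mg/kg. The smallest p among the rest of each list belonged to Ywhah (-0.43), Chka, a choline kinase (-0.26), Chrnb1 (0.13), Chrna9 (-0.053), Chrm5 (0.026), Nkx2-1 (-0.008) and Ngfr (-0.011), none called. Of the 5 neuronal markers, Snap25, Syt1 and Nefl were also called lower in this comparison, at -0.73, -0.67 and -0.62, and each lost its call without any 1 of the arrays at 0.002 mg/kg (adjusted p of 0.0675 to 0.151 in limma). Snap25 also lost it without the first or second array at 0.2 mg/kg (adjusted p of 0.101 and 0.136) and Syt1 without the third (0.0509). The other neuronal markers, Rbfox3 and Stmn2, were higher on all arrays at 0.2 mg/kg (0.11 and 0.17) and were not called (adjusted p of 0.108 and 0.413 in limma). Their part in these values was not tested.

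In the other dose comparisons 0 of the 45 were called by limma. At an unadjusted p under 0.05 there were 6 of 45 for 0.2 mg/kg against vehicle in total brain (4.32% of all probes), 6 for 0.002 mg/kg against vehicle in total brain (6.52%), 4 for 0.2 against 0.002 mg/kg in total brain (5.87%) and 5 for 0.002 mg/kg against vehicle in frontal lobe (5.11%). Slc44a1 differed from vehicle by 0.14 at 0.002 mg/kg in frontal lobe and by 0.14 at 0.2 mg/kg in total brain, with no overlap in either and adjusted p of 0.91 and 1 in limma. Of all probes, 12.8% and 10.1% were without overlap in these comparisons.

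Between the vehicle groups 31 of the 45 were called, 8 higher and 23 lower in frontal lobe, where 52.7% of all probes were called, 9.01% higher and 43.7% lower. The lower calls numbered 14 after median centring and 14 after quantile normalization, and the higher calls 8 and 9. The vesicular acetylcholine transporter Slc18a3 and the high-affinity choline transporter Slc5a7 were lower (-0.35 and -0.44), as was Ngfr, the low-affinity receptor for nerve growth factor (-1.07). Among transduction genes Rgs4, which shortens G protein signals, was higher (1.26), and the G protein subunit Gnai3 was lower (-0.90). Nsf was higher (1.20), and of the other nicotinic subunits Chrnb1 and Chrne, known from muscle, were lower (-0.65 and -0.50). These 8 genes were called after median centring and quantile normalization as well, whereas the other nicotinic subunits called lower numbered 3 under either scaling, against 6 as deposited, and Slc44a1, lower as deposited, was no longer called.

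The genes whose levels ran most like Chrna4 and Chrm4 were sought among 6758 probes with 1 symbol and a mean of at least 8 in both tissues, by Pearson's r over the 9 arrays of each tissue, averaged over the tissues. For Chrna4 the highest were Cpxm1 (0.842), Bfsp1 (0.828), Itpka, an inositol trisphosphate kinase (0.801), Hba-a3, an alpha globin (0.784) and Ascl2 (0.771), and the lowest were Ccdc43 (-0.848) and Slc25a5 (-0.807). For Chrm4 the highest were Cntn2, an axonal adhesion protein (0.806), Chka (0.792), Pip4k2a (0.773), Myo5a (0.767) and Grin2a, an NMDA receptor subunit (0.763), and the lowest were Dram2 (-0.799) and Gtpbp6 (-0.797). Among the receptors themselves, Chrm3 and Chrm4 correlated at 0.86 in frontal lobe and 0.43 in total brain, and at 0.45 and 0.60 after each dose group's mean was removed. Chrna4 and Chrm4 correlated at -0.41 in frontal lobe and 0.00 in total brain, and at 0.07 and 0.36 after the same removal. The likeness values above were taken without removing the group means. The points share arrays, RNA and normalization, and these values are descriptions of 9 arrays each.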

How the data were processed

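Expression was measured on 18 single-channel Illumina rat BeadArrays. The submitters' processing notes name lumi, so that the authors' deposited log2-like values are taken as lumi output. The sources used here do not give its version, background correction, transformation or normalization. The values carry no detection p, and their middle array median differs between frontal lobe (7.83) and total brain (7.89). They were used without further transformation or filter. Of 22523 probes, 13793 had 1 gene symbol in the platform annotation, and 13752 were matched to reference names by Entrez identifier. Dose contrasts were fitted in limma 3.58.1 (R 4.3.3; lmFit, eBayes) on each tissue's 9 arrays, and the vehicle contrast and interactions on all 18. A probe was called at an adjusted p under 0.05, with adjustment by Benjamini and Hochberg's method over the whole table. The fits were tested on simulated data. The replicate numbers were not used to pair samples in the main fits. Promoter sequences are RefSeq's (GRCr8), and figures were drawn in matplotlib 3.10.9 (Python 3.11.15).

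The named genes are the receptors, list members called in a comparison and, where a list is described by gene, its 2 smallest p, plus the 5 highest and 2 lowest likenesses to Chrna4 and Chrm4. In the vehicle contrast the largest few calls are named after their values were seen. Members and lists were chosen with earlier results of these data known. The alternatives were leaving out each array, a block for the replicate number, fits on more or fewer arrays, array weights, trend and robust options, only the brighter 50% of probes, median centring and quantile normalization. The 3 arrays per group limit the precision, and p-values reflect the spread between pups.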

Additional observations from a re-analysis of the deposited data

Results flagged for a closer look

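Slc17a7, one of the frontal cortex markers set beside the receptors, had a called interaction at 0.2 mg/kg on all 18 arrays. The term was -0.954 (log2, frontal lobe minus total brain, adjusted p = 0.0199 in limma). Tissue, age and schedule differ together in it, and for this gene it was not run under the alternatives. The difference of Slc17a7 from vehicle was -0.78 in frontal lobe and 0.17 in total brain. None of the 8 receptors had a called interaction at 0.2 or 0.002 mg/kg, where limma called 0.204% and 0% of all probes.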

How the results depend on the processing

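Of 135 alternatives for the counts of called receptors in 9 comparisons, 129 gave a count of the same size. For 0.2 mg/kg against vehicle in frontal lobe the count was 1 in place of 0 with all 18 arrays in the fit (Chrm4, adjusted p = 0.0132 in limma), and it ran from 0 to 1 when single arrays were left out. For 0.2 against 0.002 mg/kg it was 1 with all 18 arrays (Chrm4, adjusted p = 0.0167), 1 with array weights (Chrm4, adjusted p = 0.0376), 1 with trend and robust options (Chrm2, adjusted p = 0.0461) and 0 to 1 without single arrays. The count of 4 between the vehicle groups held in every alternative run. Among the single genes followed, the reversals were all of Chrna4, and none of those values was called: for 0.002 mg/kg against vehicle in total brain it was 0.003 with quantile normalization and 0.121 with array weights (range -0.097 to 0.136 without single arrays), for 0.2 against 0.002 mg/kg in total brain -0.02 to 0.214, for 0.002 mg/kg against vehicle in frontal lobe -0.135 to 0.067, between the vehicle groups 0.068 (quantile), 0.04 (centring) and 0.037 (array weights; -0.111 to 0.054 without single arrays), for the interaction at 0.2 mg/kg -0.041 with array weights (-0.05 to 0.115) and for that at 0.002 mg/kg -0.169 to 0.069. Over all 72 values of a receptor in a comparison, 103 of 1050 alternatives changed sign, none of them called. With the replicate block the counts of called receptors were 0 in each dose comparison and 4 between the vehicle groups, but the calls over all probes were 43 in place of 257 for 0.2 mg/kg against vehicle and 65 in place of 646 against 0.002 mg/kg in frontal lobe, and there Slc44a1 (adjusted p = 0.062 and 0.0997), Slc17a7 and Igfbp2 against vehicle (0.062 and 0.0746) and Plcb1 (0.0984), Grk2 (0.0593), Snap25 (0.123), Syt1 (0.0847) and Nefl (0.0549) against 0.002 mg/kg were no longer called. The sample labels name no pairing by number. Same-numbered arrays deviated together (r over 0.1) in 1 of 9 frontal lobe pairs and 6 of 9 total brain pairs. Other-numbered arrays did so in 5 of 18 frontal lobe and 6 of 18 total brain pairs. Of the arrays, 0 of 9 in frontal lobe and 5 of 9 in total brain correlated best with their own number. These values do not settle whether the numbers pair arrays in total brain. Calls over all probes for 0.2 mg/kg against vehicle in frontal lobe ran from 27 to 1036 without single arrays, and were 558 in the brighter 50%, 487 with trend and robust options, 633 with all 18 arrays and 5 with only the 6 compared arrays, where Slc44a1, Slc17a7 and Igfbp2 were no longer called (adjusted p of 0.0816, 0.0876 and 0.126), as Syt1 was not against 0.002 mg/kg (0.0604). Against 0.002 mg/kg they ran from 28 to 823, and were 1182, 1211 and 1122 under the same first 3 settings and 1066 with array weights. The interaction at 0.2 mg/kg had 46 calls, 14 to 370 without single arrays, 102 in the brighter 50%, 87 with trend and robust options and 79 with array weights. In total brain 0 to 3 probes were called. Between the vehicle groups 11866 became 5226 (quantile), 5828 (centring) and 5438 (brighter 50%). The cause of these changes was not tested.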
